A study of Homo sapiens with 22 samples.

Results

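The 44 genes described here encode proteins of ribosome biogenesis and of the nucleolus, together with enzymes of polyamine synthesis and a growth-related coactivator. They were picked by symbol from the 28063 gene rows of each library, and all 44 were present and abundant enough to be tested. By role, 5 act in transcription by RNA polymerase I, 7 in box C/D and box H/ACA small nucleolar ribonucleoproteins (snoRNPs) or their chaperone, and 5 are abundant nucleolar proteins. A further 11 process the small ribosomal subunit, 13 process the large subunit, and 3 belong to polyamine synthesis or are the coactivator PPRC1.

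RNA with poly(A) tails was sequenced from 3 human acute myeloid leukaemia lines, MOLM-13, MV-4-11 and THP-1, which all carry fusions of the KMT2A gene. Each line had been given the solvent DMSO or 1 µM BRM014 for 24 or 72 h. BRM014 blocks SMARCA4 and SMARCA2, the ATPases that drive SWI/SNF chromatin remodelling. THP-1 cells had further been given 10 nM PMA, a phorbol ester that turns them towards macrophages, for 48 h and then rested for 24 h, or 3 µM DB2313, which blocks PU.1, the ETS factor encoded by SPI1, for 72 h. Every group held 2 libraries, 22 in all, all of cells labelled WT and grown with 10% FBS. The labels do not give the time of any single DMSO library, so 1 DMSO group per line served both times and the BRM014 effect may include time in culture. They also do not state that the 2 libraries of a group came from separate cultures, nor that DB2313 and DMSO libraries of THP-1 were made together, so the p-values weigh effects against library-to-library spread that may be purely technical.

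Ribosomes are assembled in the nucleolus. RNA polymerase I makes a long precursor rRNA, snoRNPs guide its methylation and pseudouridylation, and a large set of helicases, scaffolds and nucleases cleaves and folds it into both subunits. Growing leukaemia cells make many ribosomes, and the transcription factor MYC is known to drive many of these genes, along with ODC1 and SRM of polyamine synthesis.

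Gene reads numbered 15893489 to 21565666 per library, and single members held 22 to 38651 counts in a library, the lowest for PPAN. Levels are given as CPM, a gene's counts scaled to a fixed number of gene reads. They are shares of each library's RNA, so a fall in every transcript of a cell would not be seen, and fewer cells of a type cannot be told apart from less RNA per cell. Of the 7 myeloid markers on the list, 6 were found in every library, and CSF1R, the receptor of macrophage colony-stimulating factor, was at 0.175 and 0 CPM in MV-4-11 at 72 h. Their summed level in THP-1 went from 3220 and 3061 CPM in DMSO to 928 and 945 CPM after 72 h of BRM014 and 1973 and 1908 CPM after DB2313. Within it LYZ went from 1934 and 1755 CPM to 91.9 and 96.3 CPM, CSF1R from 100.1 and 91.0 to 1.71 and 1.78 CPM, and SPI1 from 299 and 312 to 55.1 and 52.6 CPM after BRM014. In the other lines the sum stood at 2503 and 2371 CPM at 72 h against 1623 and 1777 CPM in MOLM-13, and at 1249 and 1260.3 CPM against 1231 and 1206 CPM in MV-4-11. Of 5 markers of KMT2A fusion leukaemia, MEIS1, a defining gene of many such leukaemias, was at 0 to 0.198 CPM in THP-1. The summed level of the 5 there was 309 and 303 CPM in DMSO and 484 and 454 CPM after 72 h of BRM014. It went from 924 and 846 to 623 and 619 CPM in MOLM-13, and from 474 and 491 to 393 and 392 CPM in MV-4-11. Of 7 macrophage markers CD68 led the summed level, which went from 101 and 104 CPM in MOLM-13 DMSO to 992 and 1039 CPM after 72 h of BRM014, and in THP-1 from 334 and 349.7 CPM to 672 and 709 CPM. CD163, MRC1, C1QA and C1QB stayed at or near 0 in every BRM014 library (the highest was C1QA in THP-1 at 24 h, 0.523 CPM). Of 7 epithelial and fibroblast markers the summed level in THP-1 was 0.501 and 0.841 CPM in DMSO, 14.7 and 13.8 CPM after 24 h of BRM014, 151 and 153 CPM after 72 h, and 24.8 and 29.8 CPM after DB2313. It came mostly from COL1A1 (114 and 122 CPM at 72 h) and CDH1 (35.6 and 30.3 CPM), with KRT5 and COL1A2 at 0 and EPCAM near 0 in THP-1, and stayed under 10 CPM in MOLM-13 and MV-4-11. Reads assigned to no counted feature (no-feature reads) may include reads in introns, as the counting settings are not given. They made up 12% to 19.2% of each library. This share was higher after 72 h in MOLM-13 (18.2% and 18.4%, DMSO 13.2% and 12.4%) and after BRM014 in THP-1, but was not higher in MV-4-11 (13.1% and 13.5% at 72 h, DMSO 14.3% and 13.8%). The part of these shifts in markers and reads in the results below was not tested.

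Promoter sequences are shown first because many members share 1 short motif in them. RefSeq lists a 300-base promoter, 250 bases before the start site to 50 after it, for 37 of the 44 genes, 48 windows in all on GRCh38.p14. The letters CACGTG, an E-box that MYC with its partner MAX can bind and that reads the same on both strands, stood in 19 of the 48 windows (39.6%), belonging to 18 genes. Among promoters of all genes tested the share was 9.01%, and among all listed promoters 7.26%. Of the 20 matches in member promoters, 17 lay within 50 bases of the start site. The window ends 50 bases after that site, so every match beyond it is within that distance. The like share for all genes was not counted. ODC1 alone had a pair of matches in 1 window. The TATA-box letters TATAAA, searched on both strands, stood in 2.08% of member windows against 6.97% for genes tested and 11.5% of all. The ETS-type letters CCGGAAG, searched likewise, stood in 25% against 15.1% and 10.3%. A match describes the letters only and does not show binding. The 4 windows printed are those holding CACGTG (in capitals, other bases in lower case) whose genes fell furthest after 72 h of BRM014, each 5′ to 3′ in the direction of the gene.
SRM: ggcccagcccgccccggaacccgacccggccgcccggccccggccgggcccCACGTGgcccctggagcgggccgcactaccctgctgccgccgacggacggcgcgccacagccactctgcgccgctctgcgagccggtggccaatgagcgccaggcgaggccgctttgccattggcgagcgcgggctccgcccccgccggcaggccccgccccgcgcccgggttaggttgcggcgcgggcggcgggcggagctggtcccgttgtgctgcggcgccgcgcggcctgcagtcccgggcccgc
MRTO4: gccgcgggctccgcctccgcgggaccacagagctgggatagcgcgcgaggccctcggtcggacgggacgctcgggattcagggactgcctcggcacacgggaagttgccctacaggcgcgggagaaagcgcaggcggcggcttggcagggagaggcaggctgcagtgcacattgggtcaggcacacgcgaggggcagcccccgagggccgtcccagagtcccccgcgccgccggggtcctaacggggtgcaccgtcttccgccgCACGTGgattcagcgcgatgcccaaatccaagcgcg
MYBBP1A: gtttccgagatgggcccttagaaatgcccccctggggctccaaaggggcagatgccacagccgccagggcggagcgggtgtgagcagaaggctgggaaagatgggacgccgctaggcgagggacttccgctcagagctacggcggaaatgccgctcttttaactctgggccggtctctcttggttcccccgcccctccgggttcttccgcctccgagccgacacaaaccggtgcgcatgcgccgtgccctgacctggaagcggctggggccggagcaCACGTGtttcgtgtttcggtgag
DDX21: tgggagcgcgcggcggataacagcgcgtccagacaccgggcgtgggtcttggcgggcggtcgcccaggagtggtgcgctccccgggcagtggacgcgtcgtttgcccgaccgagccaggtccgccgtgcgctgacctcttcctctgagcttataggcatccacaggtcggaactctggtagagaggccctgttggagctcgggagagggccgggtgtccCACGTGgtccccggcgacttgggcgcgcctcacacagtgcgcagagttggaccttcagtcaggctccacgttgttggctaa

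These lie, on GRCh38.p14, for SRM at chr1:11059969-11060268 on the minus strand, MRTO4 at chr1:19251555-19251854 on the plus strand, MYBBP1A at chr17:4555335-4555634 on the minus strand and DDX21 at chr10:68956397-68956696 on the plus strand. The motif began 199 bases before the start of SRM, the spermidine synthase gene, and 31 bases before that of DDX21, which encodes a nucleolar RNA helicase. It began at base 15 after the start of MRTO4, a factor of large subunit assembly, and at base 28 after the start of MYBBP1A, a nucleolar regulator of rRNA synthesis. At 72 h the median log2 fold change over lines was -1.55 for the 18 genes with the motif in a listed window (range -2.31 to -1.08). It was -1.54 for the 19 genes with windows but no match (range -2.28 to 0.36). The motif was not searched for outside these windows, and 7 members had no window. A part of the motif in the fall was not tested.

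After BRM014 nearly the whole set fell, in all 3 lines and further with time. At 24 h, 43 of 44 members were lower than DMSO in the mean of the 3 lines and 1, UBTF, was higher, where 27.1% of the 16794 genes tested were lower and 28.9% higher. The median member log2 fold change was -0.84, that of all genes 0.03. At 72 h the counts were the same, with 30.4% of all genes lower and 34.9% higher, and the member median was -1.53 against 0.07. The calls are those of edgeR's quasi-likelihood test across all 22 libraries at a Benjamini-Hochberg adjusted p under 0.05. The members were chosen with earlier results of these data known, so their counts describe them and are no independent evidence of direction.

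Summed over the 44 genes, the share of gene reads in MOLM-13 was 1.11% and 1.06% in DMSO, 0.597% and 0.582% after 24 h, and 0.316% and 0.325% after 72 h. MV-4-11 went from 1.04% and 1.02% to 0.722% and 0.723%, then to 0.476% and 0.475%. THP-1 started lower, at 0.852% and 0.855%, and stood at 0.476% and 0.467% after 24 h and 0.395% and 0.389% after 72 h. No BRM014 library overlapped the DMSO libraries of its line. As a share of the DMSO mean, 29.6% was left at 72 h in MOLM-13, 46.3% in MV-4-11 and 46% in THP-1. The plot of summed shares sets these values beside the cytosolic ribosomal protein genes, which are taken up below.

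**Figure D1:**
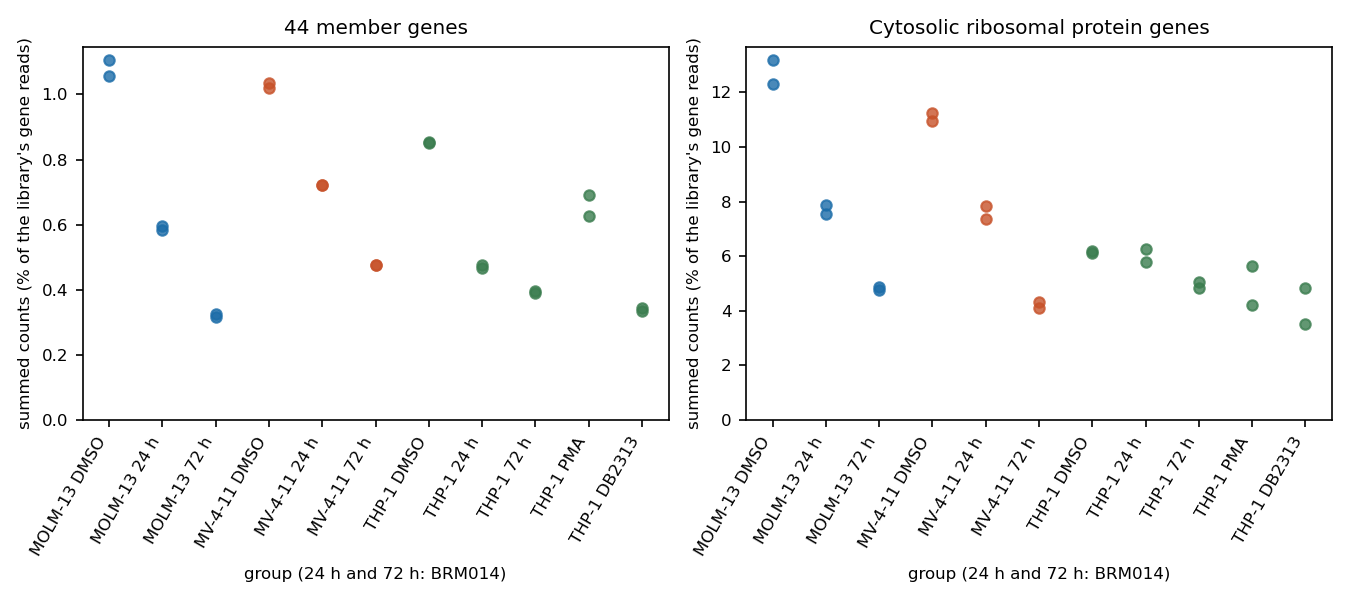
Summed counts of the 44 members (left) and of the cytosolic ribosomal protein genes (right), each as % of the library's gene reads, by group, with 1 point per library and 2 libraries per group. The members fell in all 3 lines after BRM014, from 0.852% to 1.11% in DMSO to 0.316% to 0.476% at 72 h, while the ribosomal protein genes of THP-1 held 6.25% and 5.77% after 24 h against 6.12% and 6.18% in DMSO.

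**Figure D2:**
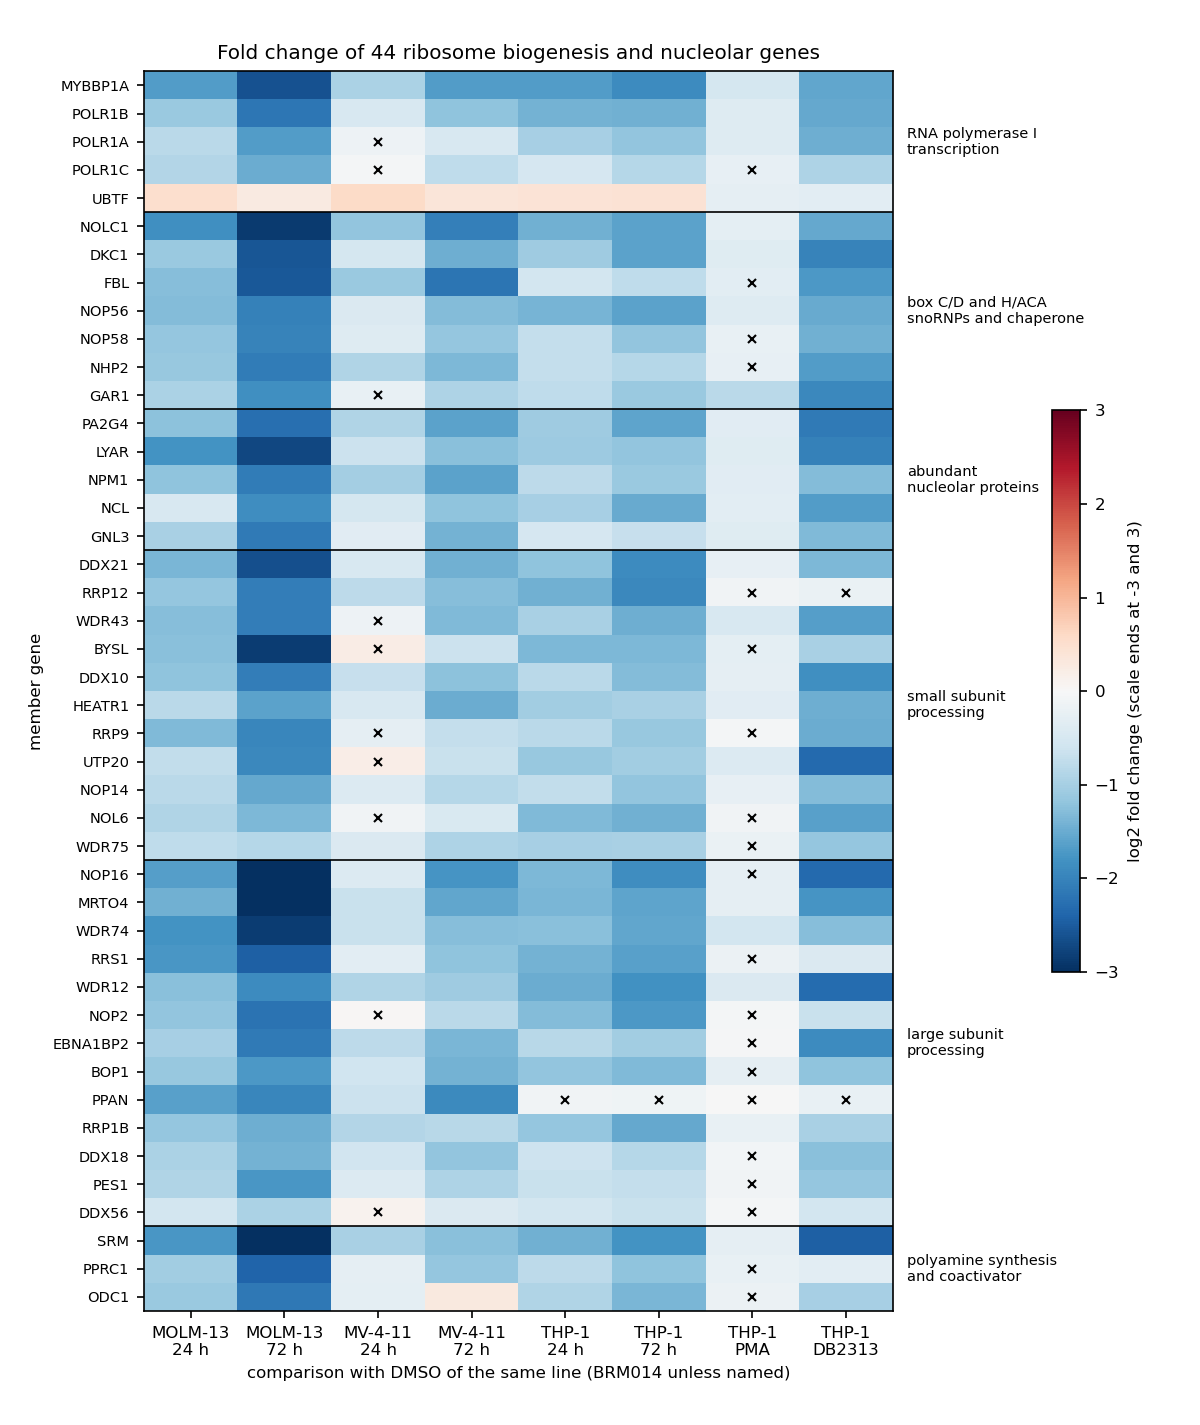
Log2 fold change of each of the 44 members (rows, by role, lowest 72 h mean first) in 8 comparisons with DMSO of the same line (columns), blue for lower and red for higher. A cross marks a member not called at an adjusted p under 0.05. The scale ends at -3 and 3, so SRM in MOLM-13 at 72 h (-3.87) is shown at its end. UBTF is the red row.

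Among the 5 genes of RNA polymerase I transcription, 4 fell and 1 rose at both times. MYBBP1A fell most. Its level in MOLM-13 was 168 and 177 CPM in DMSO, 54.8 and 63.7 CPM after 24 h and 31.1 and 33.8 CPM after 72 h. In MV-4-11 it went from 216 and 200.1 to 108 and 117 and then 67.7 and 68.1 CPM, and in THP-1 from 96.0 and 92.1 to 30.6 and 29.7 and then 25.4 and 28.5 CPM. No treated library reached its DMSO libraries, and the mean log2 fold change was -1.44 ± 0.05 (standard error) at 24 h and -2.05 ± 0.05 at 72 h (adjusted p = 3.9e-18). POLR1A and POLR1B, the largest subunits of the enzyme, and POLR1C, a subunit it shares with RNA polymerase III, made up the other lower members of this role. Their mean log2 fold changes at 72 h ran from -1.60 (POLR1B) to -1.04 (POLR1C).

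UBTF, the DNA-bending factor that holds ribosomal DNA open for the polymerase, went the other way. Its level rose from 221 and 227 CPM in MOLM-13 DMSO to 334 and 354 CPM at 24 h and 320.2 and 296 CPM at 72 h. In MV-4-11 it was 247 and 243 CPM in DMSO, 379 and 388 CPM at 24 h, and 325 and 333 CPM at 72 h. THP-1 had 239 and 230.2 CPM, then 317 and 329.6 CPM, then 343 and 329 CPM. Every BRM014 library lay above every DMSO library of its line. The mean log2 fold change was 0.49 ± 0.05 at 24 h (adjusted p = 7.4e-09) and 0.36 ± 0.05 at 72 h (adjusted p = 5.7e-07). Single lines gave 0.27 ± 0.08 to 0.57 ± 0.08, and the F test found no difference between lines (adjusted p = 0.486 for the 24 h effect and 0.448 for the 72 h effect). The call in MOLM-13 after 72 h was lost without replicate 1 of either group (0.21, adjusted p = 0.0758, without the treated library, and 0.23, adjusted p = 0.0546, without the DMSO library).

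All 7 snoRNP genes were lower in the mean of lines at both times, with 72 h medians of -1.64 over the role. NOLC1, the chaperone known as Nopp140 that carries snoRNPs to the nucleolus, held 389 and 339 CPM in MOLM-13 DMSO, 116 and 106 CPM at 24 h, and 56.5 and 56.7 CPM at 72 h. In MV-4-11 the levels were 438 and 435, 200.4 and 206, then 112 and 107 CPM, and in THP-1 they were 169 and 169, 62.7 and 66.5, then 62.1 and 55.9 CPM. The groups did not overlap in any line, and NOLC1 had the lowest mean of all members at 24 h (-1.48 ± 0.04, adjusted p = 7.9e-17). DKC1, the pseudouridine synthase mutated in dyskeratosis congenita, stood at -1.87 ± 0.04 at 72 h, and NOP56 and NOP58, core proteins of box C/D particles, at -1.64 ± 0.05 and -1.45 ± 0.05. NHP2, a box H/ACA core protein, stood at -1.43 ± 0.08, but 27.4% of its exon bases overlap RMND5B on the other strand.

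FBL, the methyltransferase of box C/D snoRNPs, started at a lower level in THP-1. It stood at 404 and 456 CPM in MOLM-13 DMSO, 372 and 372 CPM in MV-4-11, but 159 and 157 CPM in THP-1. At 24 h it stood at 197 and 188, 190.4 and 172, and 117 and 105 CPM in the same order of lines. After 72 h the lines were close together, at 85.4 and 83.8, 80.4 and 90.3, and 96.3 and 102 CPM. The fall at 72 h was thus -2.54 ± 0.16 in MOLM-13, -2.18 ± 0.15 in MV-4-11 and -0.76 ± 0.15 in THP-1 on the log2 scale, and the lines differed (adjusted p = 1.7e-06, F test). In THP-1 at 24 h the FBL call was lost without replicate 2 of the treated group (adjusted p = 0.0562). GAR1, which binds box H/ACA RNAs, had the smallest mean fall of the role at 72 h, -1.30 ± 0.06. It held 70.4 and 66.4 CPM in MOLM-13 DMSO, 41.3 and 36.1 CPM at 24 h and 21.7 and 22 CPM at 72 h. In MV-4-11 the 24 h libraries, at 58.1 and 53.5 CPM, overlapped DMSO at 65.4 and 58.0 CPM, and only the 72 h libraries, at 31.6 and 35.4 CPM, lay apart. THP-1 went from 42.4 and 42.7 to 25.6 and 26.2 and then 21.7 and 19.7 CPM.

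All 5 genes grouped as abundant nucleolar proteins fell at both times. Per kilobase of exon, NPM1 and NCL ranked first and second of the 44 in DMSO of each line. PA2G4 ranked 4 in each, while GNL3 ranked 13, 10 and 8 and LYAR 21, 22 and 24 in MOLM-13, MV-4-11 and THP-1. NPM1, the nucleolar chaperone nucleophosmin, which is often mutated in acute myeloid leukaemia, went in MOLM-13 from 2105 and 1919 CPM to 967 and 927 CPM at 24 h and 517 and 558 CPM at 72 h. In MV-4-11 it went from 1871 and 1852 to 968 and 966 and then 639 and 635 CPM, and in THP-1 from 1200.0 and 1218 to 743 and 714 and then 601 and 576 CPM. The mean fell by 1.00 ± 0.04 at 24 h and by 1.61 ± 0.04 at 72 h on the log2 scale.

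NCL, nucleolin, binds precursor rRNA. Its 24 h fall differed between lines (adjusted p = 3.5e-04, F test) and was the smallest of the 43 lower members in MOLM-13, where it went from 1783 and 1669.7 CPM to 1369 and 1335 CPM and by 72 h to 531 and 560.3 CPM. In THP-1 the order was 1725 and 1727, 911 and 868, then 642 and 650.4 CPM, and in MV-4-11 it was 1585 and 1533, 1131 and 1125, then 706 and 701 CPM. Each step separated the libraries. PA2G4, a nucleolar growth regulator also called EBP1, had the lowest mean of this role at 72 h (-1.82 ± 0.04). It went from 529 and 511 to 243 and 243 and then 116 and 134 CPM in MOLM-13, from 463 and 454 to 256 and 264 and then 154 and 159 CPM in MV-4-11, and from 388 and 390.0 to 195 and 189 and then 140.4 and 133 CPM in THP-1. The 3 groups of each line lay apart. GNL3, nucleostemin, fell least of the 5 in the mean (-1.41 ± 0.05). It went from 228 and 193 to 122 and 111 and then 54.5 and 55.8 CPM in MOLM-13, and from 215 and 205 to 179.9 and 171 and then 85.9 and 78.3 CPM in MV-4-11. THP-1 kept the most of it, with 225 and 225, 163 and 167, then 149 and 146 CPM. LYAR, a nucleolar zinc finger protein, had a mean of -1.73 ± 0.07.

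All 11 small subunit genes were lower in the mean of lines, with a median of -0.78 at 24 h and -1.36 at 72 h. DDX21, the helicase whose promoter is shown above, fell most. It held 543 and 438 CPM in MOLM-13 DMSO, 222 and 192 CPM at 24 h and 85.3 and 94.8 CPM at 72 h, with 519 and 517, 406 and 380.1, and 198 and 199 CPM in MV-4-11. In THP-1 it went from 214 and 210.1 to 97.6 and 92.3 and then 64.2 and 57.8 CPM, and the mean log2 fold change at 72 h was -1.99 ± 0.05 (adjusted p = 2.0e-17). WDR75, a part of the early complex on the precursor's 5′ end, fell least (-0.92 ± 0.05). Its MOLM-13 libraries stood at 85.1 and 72.5 CPM in DMSO and already at 51.4 and 50.1 CPM by 24 h, against 47.2 and 52.1 CPM at 72 h, so the later times overlapped. MV-4-11 had 88.5 and 85.8, 66.5 and 68.7, then 49.4 and 46.7 CPM, and THP-1 had 78.0 and 81.0, 38.0 and 45.0, then 45.3 and 40.7 CPM. The other 9 small subunit genes had 72 h means from -1.76 ± 0.07 (RRP12) to -1.08 ± 0.04 (NOL6). Among them WDR43 (-1.62 ± 0.06) and HEATR1 (-1.36 ± 0.05) belong with WDR75 to that early complex, and RRP9 (-1.27 ± 0.10) binds the U3 snoRNA. BYSL stood at -1.61 ± 0.08, the helicase DDX10 at -1.54 ± 0.06, UTP20 at -1.21 ± 0.06 and NOP14 at -1.20 ± 0.05. Exon bases of HEATR1 (23.2%) and NOP14 (17.1%) overlap genes on the other strand.

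The 13 large subunit genes were also all lower in the mean, with medians of -0.98 and -1.52. NOP16, a nucleolar assembly factor, dropped in MOLM-13 from 72.8 and 73.4 CPM to 25.1 and 25.3 CPM at 24 h and 8.15 and 9.90 CPM at 72 h. In MV-4-11 most of its fall came late, from 49.9 and 56.0 to 42.7 and 40.7 and then 16.5 and 16.0 CPM, and in THP-1 it went from 54.4 and 46.6 to 21.5 and 19.4 and then 13.4 and 16.1 CPM. Its mean at 72 h was -2.28 ± 0.08. About 20.0% of its exon bases overlap ARL10 or HIGD2A on the other strand, and no source says whether strand was used in counting, so its value carries that uncertainty. DDX56, a helicase, fell least of the lower members at both times (-0.33 ± 0.05 and -0.68 ± 0.05). It went from 101 and 100.4 to 73.0 and 77.9 and then 59.2 and 59.0 CPM in MOLM-13 and from 102 and 105 to 72.0 and 74.6 and then 70.0 and 69.6 CPM in THP-1. In MV-4-11 it stood at 89.3 and 90.8 CPM in DMSO, at 104 and 100.3 CPM at 24 h with no call, and at 68.2 and 71.0 CPM at 72 h. The 3 genes of the PES1, BOP1 and WDR12 complex, which joins the large subunit early, all fell, with 72 h means between -1.60 (WDR12) and -1.13 (PES1). MRTO4 (-2.10 ± 0.06), WDR74 (-1.90 ± 0.11) and RRS1 (-1.77 ± 0.07) followed NOP16 closely. NOP2 stood at -1.58 ± 0.05, EBNA1BP2 at -1.52 ± 0.07, PPAN at -1.33 ± 0.14, RRP1B at -1.28 ± 0.05 and the helicase DDX18 at -1.15 ± 0.04. Exon bases of EBNA1BP2 (20.5%) and POLR1C of the first role (11.1%) also overlap other genes.

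Of the polyamine genes, SRM, which makes spermidine, had the lowest mean of all 44 at 72 h (-2.31 ± 0.06, adjusted p = 8.2e-18). It held 184 and 207 CPM in MOLM-13 DMSO, 60.1 and 68.1 CPM at 24 h and 16.3 and 14.3 CPM at 72 h. MV-4-11 went from 177 and 171 to 88.7 and 97.6 and then 77.0 and 73.9 CPM, and THP-1 from 194 and 191 to 74.1 and 72.9 and then 60.4 and 57.3 CPM. All groups lay apart from DMSO. ODC1, ornithine decarboxylase, the rate-limiting enzyme of the pathway, fell in MOLM-13 (255 and 259, 135 and 125, then 63.3 and 69.3 CPM) and in THP-1 (366 and 372, 212 and 194, then 150.1 and 153 CPM). In MV-4-11 it dipped from 319 and 316 to 269 and 279 CPM at 24 h and then stood above DMSO, at 407 and 398 CPM. That made ODC1 the 1 member with opposite calls in different lines at 72 h, -2.15 ± 0.09 in MOLM-13, -1.37 ± 0.09 in THP-1 and 0.28 ± 0.08 in MV-4-11 (adjusted p = 9.7e-12 for the difference between lines, F test). The call of a rise in MV-4-11 (adjusted p = 0.0069) was lost without replicate 1 of its 72 h group (0.26, adjusted p = 0.0530), and the call of a fall at 24 h (-0.28 ± 0.08) without replicate 1 of the 24 h group (adjusted p = 0.0692). PPRC1, a coactivator of growth-induced transcription, was called lower in all 3 lines at both times, with a mean of -1.59 ± 0.06 at 72 h. Its call in MV-4-11 at 24 h was narrow (-0.27, adjusted p = 0.0376, edgeR). That call was lost without either 24 h library (-0.23 and -0.31) or either DMSO library (-0.31 and -0.21). It was also lost with library size alone (-0.20, adjusted p = 0.141).

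**Figure D3:**
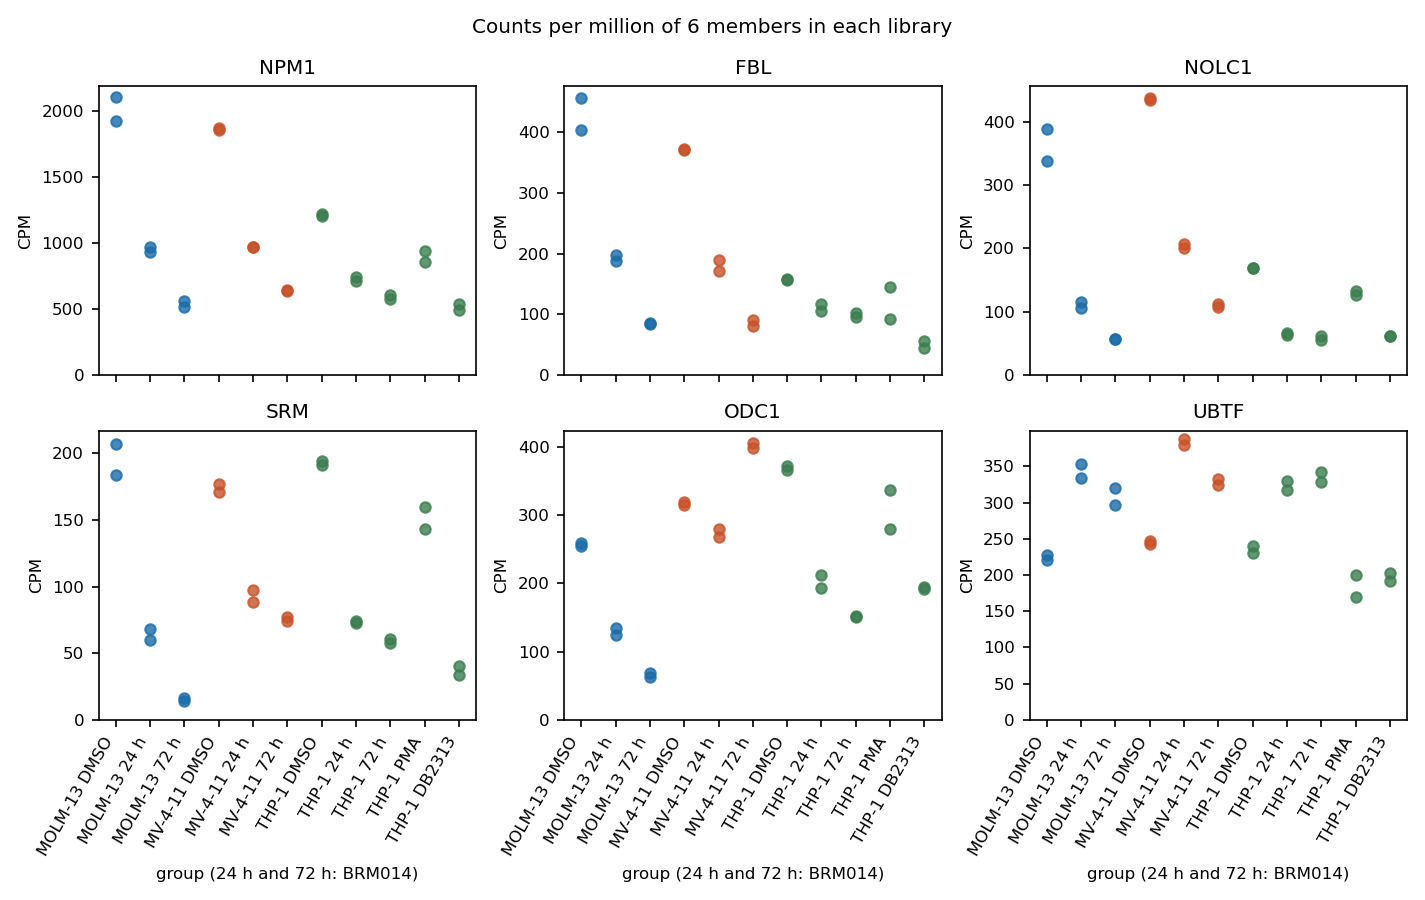
Level in CPM (linear axis from 0) of 6 members in each of the 22 libraries, 1 point per library, blue for MOLM-13, orange for MV-4-11 and green for THP-1. NPM1, FBL, NOLC1 and SRM step down from DMSO to 72 h in each line, ODC1 does so in MOLM-13 and THP-1 but ends at 407 and 398 CPM in MV-4-11, and UBTF is above DMSO in all BRM014 libraries.

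The lines differed in size and timing more than in direction. In MOLM-13, 43 members were lower and 1 higher at 24 h (23.5% and 22.7% of all genes), with a median of -1.16, and again at 72 h (29.4% and 30.3%), with a median of -2.07. THP-1 gave 42 lower and 1 higher at 24 h (24.1% and 25.9%) with a median of -1.03, and 42 and 1 at 72 h (28% and 30.9%) with a median of -1.32. MV-4-11 responded less at 24 h, with 33 lower, 1 higher and 10 not called (22.4% and 23.6% of all genes) and a median of -0.47, and reached 42 lower and 2 higher at 72 h (26.1% and 28.4%) with a median of -1.23. The member without a call in THP-1 was PPAN, a large subunit factor, at 7.71 and 6.68 CPM in DMSO, 6.80 and 6.91 CPM at 24 h and 7.07 and 6.74 CPM at 72 h. About 59.8% of its exon bases overlap P2RY11 or the read-through gene PPAN-P2RY11 on the same strand, so its value is uncertain. In MV-4-11 its 72 h fall was -1.90 ± 0.26, and -2.51 without replicate 2 of that group. Lower in all 3 lines were 32 members at 24 h and 41 at 72 h, where 9.49% and 14.5% of all genes were lower in all 3.

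Tested directly, the 24 h effect differed between lines for 39 of 44 members (43.5% of all genes) and the 72 h effect for 41 (52.9%). The smallest adjusted p at 24 h belonged to NOL6, NOP2 and UTP20, which all stood near DMSO in MV-4-11. NOL6, a scaffold of the small subunit precursor, held 108 and 109 CPM there against 108 and 114 CPM in DMSO, but 89.6 and 92.1 CPM against 219.9 and 223 CPM in THP-1 (adjusted p = 7.0e-09). NOP2, an rRNA methyltransferase, held 92.4 and 99.3 CPM against 88.5 and 89.3 CPM in MV-4-11 and 54.5 and 57.9 CPM against 118 and 114 CPM in MOLM-13 (adjusted p = 9.8e-09). UTP20, a large small-subunit scaffold, held 76.6 and 74.0 CPM against 64.2 and 61.7 CPM in MV-4-11, with no call (0.19 ± 0.10, adjusted p = 0.122), and 40.1 and 37.8 CPM against 62.6 and 57.4 CPM in MOLM-13 (adjusted p for the difference = 6.6e-07). UTP20 was called higher in MV-4-11 without replicate 1 or replicate 2 of PMA (adjusted p = 0.0418 and 0.0417) and with scaling by library size alone (0.26, adjusted p = 0.0448). The other members not called in MV-4-11 at 24 h were POLR1A, POLR1C, GAR1, RRP9, WDR43, BYSL and DDX56, and all 10 were lower at 72 h. Like UTP20, BYSL was called higher at 24 h without replicate 1 or replicate 2 of PMA (0.23 in each). Its 24 h libraries, at 72.4 and 75.7 CPM, lay above DMSO at 59.1 and 60.9 CPM. At 72 h the clearest differences were those of ODC1, SRM and GNL3, whose levels are given above (adjusted p = 9.7e-12, 4.3e-11 and 7.3e-09).

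In DMSO, 37 of 44 members differed between lines, beside 78.9% of all genes. The level was highest in MOLM-13 for 21 members, in MV-4-11 for 12 and in THP-1 for 11, and lowest in THP-1 for 26. NOL6 was an exception to that order, at 219.9 and 223 CPM in THP-1 against 132 and 130.1 CPM in MOLM-13. How often each line was highest or lowest over all genes was not counted, so the order may not be particular to the members.

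From 24 to 72 h the fall went on in MOLM-13 and MV-4-11 and much less in THP-1. In MOLM-13, 42 members were lower at 72 h than at 24 h and none higher (22.7% and 20.8% of all genes), with a median step of -0.90. SRM went furthest (-2.13 ± 0.11), followed by MRTO4 (-1.70 ± 0.11), and WDR75 was not called (-0.10 ± 0.09). MV-4-11 had 41 lower and 1 higher (16.9% and 18.6%), with a median of -0.70, and the higher one was ODC1 (0.57 ± 0.08, adjusted p = 1.8e-05). In THP-1, 19 were lower, none was higher and 25 were not called (16.5% and 16.2%), with a median of -0.22. DDX21 had the largest step there, -0.68 ± 0.10 (adjusted p = 2.0e-05). The THP-1 count was 29 when the PMA and DB2313 libraries were left out of the fit. In that fit 21.4% of all genes were lower, in place of 16.5%. Of the members lower at both times, 41 of 43 fell further in MOLM-13, 30 of 32 in MV-4-11 and 19 of 42 in THP-1. The difference between lines in this step was not tested itself. Among all genes lower at both times, the share that fell further was not counted.

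PMA gave a smaller and less certain fall. Of the 44 members 24 were lower than DMSO, none higher and 20 not called (17.1% and 18.9% of all genes), with a median of -0.27. GAR1 fell most, from 42.4 and 42.7 CPM to 20.6 and 25.0 CPM (-0.81 ± 0.11, adjusted p = 5.8e-06). WDR74, a large subunit factor, followed (-0.54 ± 0.18), and MYBBP1A fell from 96.0 and 92.1 to 58.8 and 63.3 CPM (-0.54 ± 0.09). UBTF, higher after BRM014, was lower here, at 170.1 and 199 CPM against 239 and 230.2 CPM (-0.26 ± 0.08, adjusted p = 0.0141). The UBTF call was lost without replicate 1 of DMSO (adjusted p = 0.0859) or of PMA (adjusted p = 0.203). That of WDR74 was lost without replicate 2 of DMSO (adjusted p = 0.195) or replicate 1 of PMA (adjusted p = 0.285). The 2 PMA libraries stood apart, with 16.0% and 12.4% of no-feature reads and FBL at 92.8 and 145 CPM. The count of lower members was 17 without replicate 1 and 32 without replicate 2 of PMA, and 15 without either DMSO library. Scaling by library size alone gave 35, and moved all genes from 17.1% lower and 18.9% higher to 22.6% and 15.7%. In these libraries the summed macrophage markers stood at 847 and 826 CPM and LYZ, the lysozyme gene, led the myeloid ones. Their part in the member result was not tested.

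DB2313 lowered the set about as widely as BRM014 did in the same line. Of the 44 members 42 were lower than DMSO, none higher (29.5% and 35.9% of all genes), with a median of -1.46 against 0.14 for all genes. SRM fell furthest, from 194 and 191 to 40.4 and 33.9 CPM (-2.45 ± 0.10), then UTP20, from 76.0 and 75.5 to 15.9 and 15.7 CPM (-2.34 ± 0.11), and NOP16, from 54.4 and 46.6 to 12.1 and 9.16 CPM (-2.33 ± 0.15). These libraries lay far below DMSO. PPAN and RRP12 were not called. RRP12, an export factor of both subunits, stood at 48.8 and 44 CPM against 46.2 and 54.3 CPM (-0.19 ± 0.11, adjusted p = 0.147). UBTF was lower, at 203 and 192 CPM (-0.32 ± 0.08, adjusted p = 0.0012). ITGA2B, a megakaryocyte gene, brought the summed erythroid and megakaryocyte markers to 140.3 and 152 CPM in these libraries (1.25 and 1.04 CPM in DMSO), while HBB and PF4 were at 0. Its part in the member result was not tested.

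Both drug effects in THP-1 share the DMSO libraries, so they were compared directly at 72 h. After BRM014, 22 members were higher and 9 lower than after DB2313 (30.4% and 30.9% of all genes), and 13 were not called. The widest gap downward was RRP12, at 15.9 and 12 CPM after BRM014 (-1.74 ± 0.13, adjusted p = 3.2e-10). RRS1, a large subunit factor, followed with 27.2 and 30.6 against 68.6 and 62.5 CPM (-1.19 ± 0.12), then NOP2 with 16.2 and 16.4 against 32.7 and 34.3 CPM (-1.05 ± 0.09). Upward the widest gaps were UTP20, with 41.0 and 37.0 against 15.9 and 15.7 CPM (1.29 ± 0.11), FBL, with 96.3 and 102 against 56.5 and 44.7 CPM (0.96 ± 0.16), and EBNA1BP2, a large subunit factor, with 69.4 and 69.8 against 42.6 and 35.0 CPM (0.83 ± 0.12). None of these pairs of groups overlapped. The DB2313 dose was 3 µM and that of BRM014 1 µM, and the drugs have different targets.

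**Figure D4:**
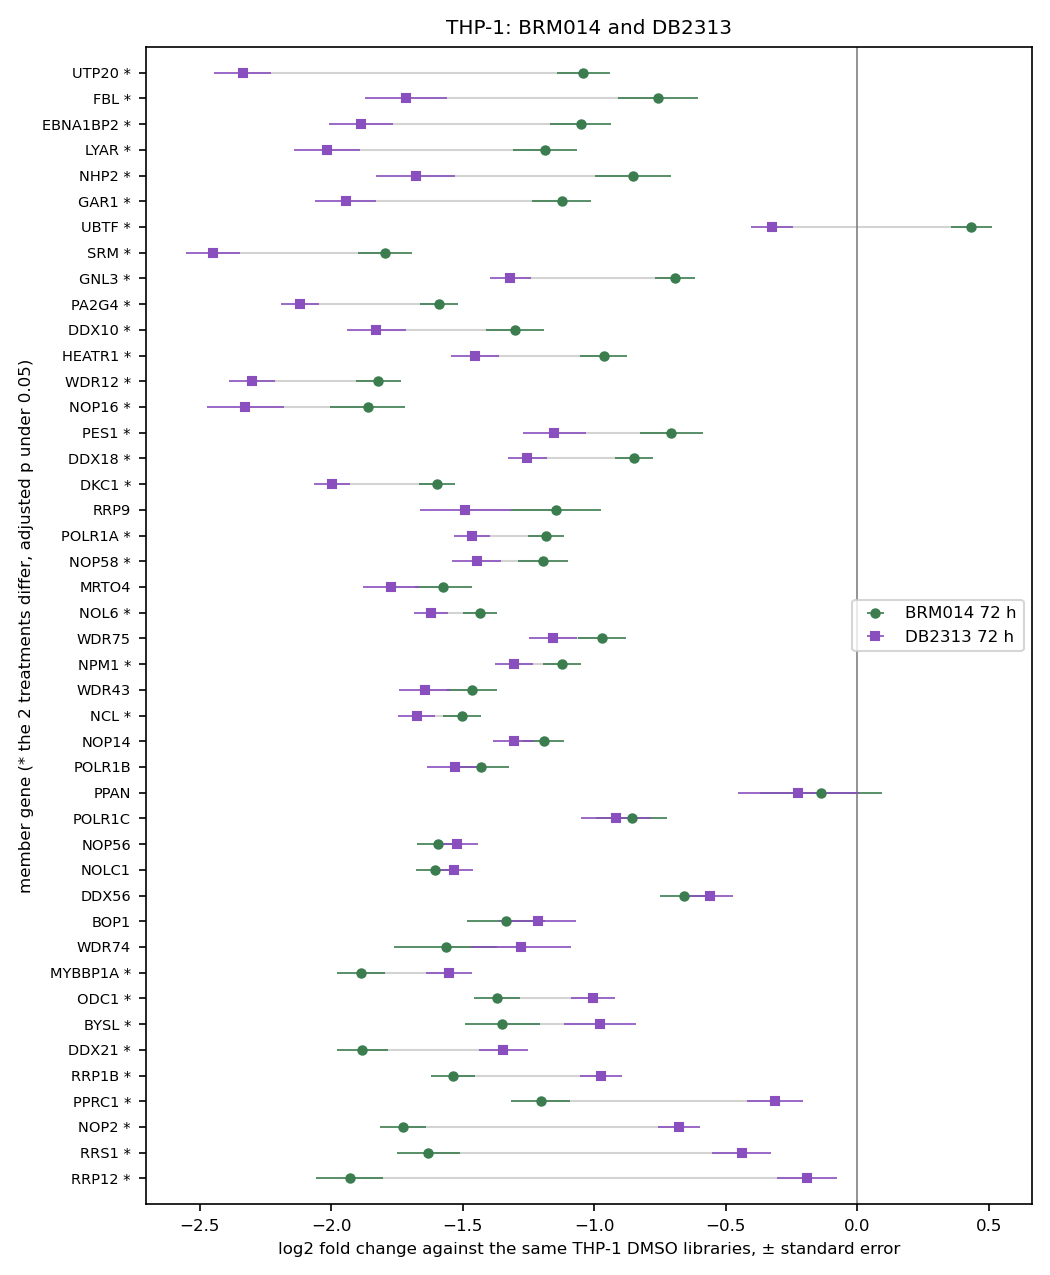
Log2 fold change against the same THP-1 DMSO libraries, with bars of ± 1 standard error, for each member after 72 h of BRM014 (circles) or DB2313 (squares), ordered by the difference between the drugs. An asterisk marks the 31 members whose levels differed between the drugs. RRP12, RRS1 and NOP2 are lower after BRM014, UTP20 and FBL are lower after DB2313, and UBTF lies on opposite sides of 0.

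Most genes of the same pathways outside the set were lower too. Of all genes tested, 30.4% were lower and 34.9% higher in the mean of lines at 72 h. In the mean of lines at 72 h, 33 of 35 other small subunit factors were lower and none higher (median -1.0), as were 32 of 33 other large subunit factors with 1 higher (median -0.95). NLE1, a large subunit factor, had the lowest value of these (-2.56 ± 0.11). NVL, an ATPase of that step, was the higher one (0.17 ± 0.05, adjusted p = 0.0042). Of 10 other snoRNP genes 9 were lower, led by RUVBL1, an assembly ATPase (-1.96 ± 0.07). Other RNA polymerase I genes gave 8 of 11 lower and 1 higher, TAF1C of the selectivity factor SL1 (0.22 ± 0.05, adjusted p = 0.0016, edgeR). TAF1C rose in MOLM-13, from 59.3 and 71.6 CPM in DMSO to 120 and 114 CPM at 72 h, and in THP-1. In MV-4-11 it went down, from 96.0 and 92.0 CPM to 72.4 and 75.5 CPM. RNA polymerase III genes gave 15 of 20 lower and 1 higher, and RNA exosome genes 13 of 14 lower, led by EXOSC5 (-2.18 ± 0.09).

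Other polyamine genes split at 72 h, with 4 of 9 lower and 4 higher (30.4% and 34.9% of all genes). SAT1, which acetylates spermidine and spermine for export or breakdown, rose in MOLM-13 from 77.1 and 76.0 CPM in DMSO to 887 and 926 CPM at 72 h (mean of lines 3.15 ± 0.06). AMD1, which supplies the aminopropyl donor for SRM, was lower (-0.97 ± 0.05). Of the 9 genes of the MYC network 3 were lower and 6 higher at 72 h, beside the same 30.4% and 34.9% of all genes. MYC itself held 674 and 716 CPM in MOLM-13 DMSO and 8.75 and 9.90 CPM at 72 h, with 1041 and 1058 against 38.1 and 41.8 CPM in MV-4-11 and 262 and 281 against 19.2 and 18.5 CPM in THP-1. Its mean log2 fold change was -5.04 ± 0.05. By 24 h it stood at 71.2 and 68.7 CPM in MOLM-13, 129.7 and 145 CPM in MV-4-11 and 19.8 and 17.8 CPM in THP-1. Its level after PMA was 139.6 and 131 CPM, and after DB2313 82.7 and 79.5 CPM. MXD1, a partner of MAX that represses transcription, was the highest of the network in the mean of lines (1.91 ± 0.08). At 72 h it held 507 and 505 CPM in MOLM-13 (DMSO 68.2 and 60.8), but 19.6 and 19.3 CPM in THP-1 (DMSO 14.3 and 14.1). MXI1 of the network went down in each line, in MOLM-13 from 75.6 and 73.2 to 31.1 and 29.2 CPM.

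Cytosolic ribosomal protein genes, whose products the members assemble, parted from the members in THP-1. In that line 8 of 83 were lower at 24 h and 3 higher (24.1% and 25.9% of all genes), with a median of -0.06, where 42 of 44 members were lower. At 72 h 39 of 83 were lower (28% of all genes), with a median of -0.34. In MOLM-13, 78 of 83 were lower at 24 h and 81 at 72 h (23.5% and 29.4% of all genes). The MV-4-11 counts were 66 and 80 (22.4% and 26.1%). Their summed share in THP-1 was 6.12% and 6.18% in DMSO, 6.25% and 5.77% at 24 h, and 4.84% and 5.07% at 72 h. The MOLM-13 share dropped from 12.3% and 13.2% to 4.76% and 4.86% at 72 h. Over the 83 genes, the 24 h effect differed between lines for 68 (43.5% of all genes). Many ribosomal protein genes have near-identical processed copies in the genome, so their counts are uncertain. Such copies of the members were not looked for, so the sets cannot be ranked on this point.

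**Figure D5:**
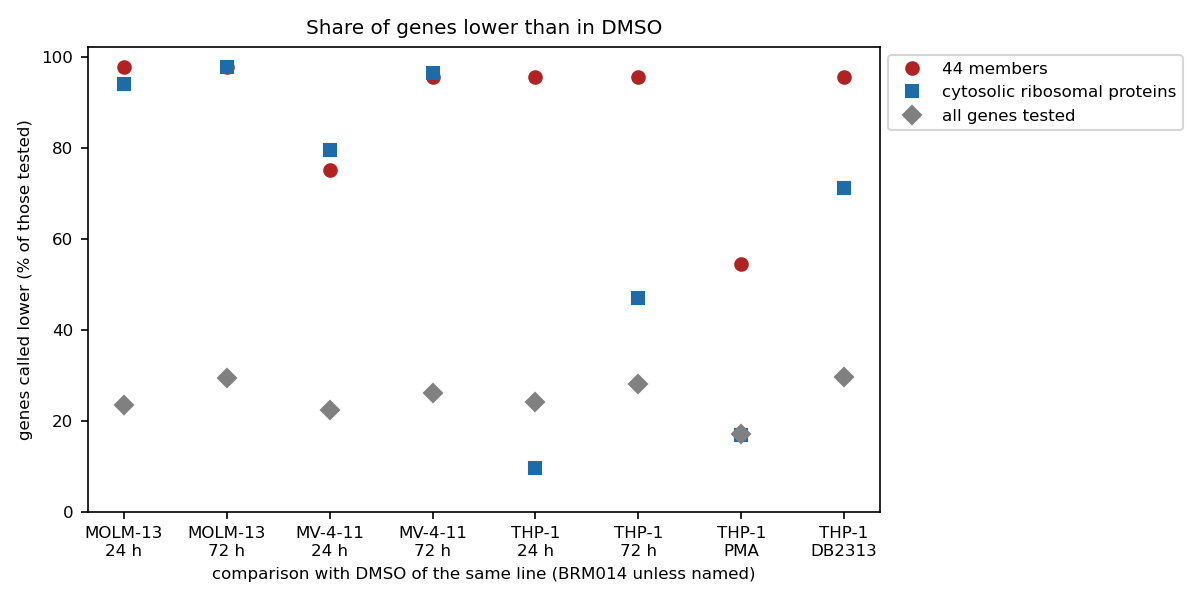
Percentage of genes called lower than DMSO of the same line (adjusted p under 0.05) in 8 comparisons, for the 44 members (circles), the cytosolic ribosomal protein genes tested (squares) and all genes tested (diamonds). Members and ribosomal protein genes lie close together in MOLM-13 and MV-4-11 and apart in THP-1, where 8 of 83 ribosomal protein genes and 42 of 44 members were lower at 24 h.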

How the data were processed

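Gene-level counts of poly(A) RNA were used as the authors deposited them, 1 library per file, with no normalization in the files. HISAT2 2.1.0, HTSeq and DESeq2 are the tools listed by the submitters' processing notes, with hg38 as the build. Roles of the tools, the annotation and the strand setting are not given in the sources used here. Rows naming no gene (no-feature reads, 12% to 19.2% of each library, among them) were left out. All 22 libraries entered 1 edgeR 4.0.16 fit (R 4.3.3) with a coefficient for each of the 11 groups, TMM scaling and filterByExpr with a minimum count of 10, which kept 16794 genes. Quasi-likelihood F tests were adjusted by Benjamini-Hochberg over all of them and called at 0.05. Standard errors are the fold change over the square root of F. CPM used gene reads without TMM, so levels and fold changes differ slightly. The script was tested on simulated data, where it recovered fewer of the changed genes than first required. The requirement was then relaxed, with that outcome known, to small bias and few false calls, so changes of moderate size can go uncalled. Alternatives were library size alone, DESeq2 1.42.0, no filter, a replicate block, the fit without PMA and DB2313 libraries, and leaving out each of the 22 libraries. Members, lists and tests were chosen with earlier results of these data known. Per-library values are given for the members with the largest and smallest 72 h change of each role, those that rose after BRM014, and NPM1, NCL and FBL. In each single comparison the 3 lowest and 3 highest could be named, in each test between lines the 3 smallest p, and of each other list the 2 lowest and 2 highest. Levels of other members (PPAN, WDR12, PES1, and those at 24 h in MV-4-11) were added after their values were seen. Exon overlaps came from GENCODE v29 on GRCh38. All promoter windows RefSeq lists for a gene were searched, and 7 members had none. Protein sequences were not used here. A first count that kept only genes with a single window was replaced to cover more members.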

Additional observations from a re-analysis of the deposited data

Results flagged for a closer look

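Tests of the difference itself compared the BRM014 effect between MOLM-13, MV-4-11 and THP-1 (edgeR F test, Benjamini-Hochberg adjusted p under 0.05). The 24 h effect was unequal for 39 members (43.5% of all genes) and the 72 h effect for 41 members (52.9%). At 24 h the smallest adjusted p were those of NOL6 (7.0e-09), NOP2 (9.8e-09) and UTP20 (6.6e-07). The log2 fold changes in MOLM-13, MV-4-11 and THP-1 were -0.91, -0.11 and -1.33 for NOL6, -1.17, 0.04 and -1.30 for NOP2, and -0.75, 0.19 and -1.14 for UTP20. At 72 h they were those of ODC1 (9.7e-12), SRM (4.3e-11) and GNL3 (7.3e-09). In the same order of lines, ODC1 stood at -2.15, 0.28 and -1.37, SRM at -3.87, -1.26 and -1.80, and GNL3 at -2.12, -1.41 and -0.69.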

How the results depend on the processing

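The 61 results were 31 counts of members and 30 fold changes of single members in the mean of lines. Of their recomputed values, 969 kept their direction and call or stayed within 1.5 times the count, 9 counts moved further, and 0 reversed. Only the fold changes could reverse, and they were not recomputed with 1 library left out. Fold changes in single lines were not among these results. With library size alone some of those near 0 changed sign, among them POLR1C in MV-4-11 at 24 h (-0.065 to 0.007). The 43 lower members in the mean of lines stayed at 43 at both times when any 1 of the 22 libraries was left out. The count of higher members ran from 1 to 3 in MV-4-11 at 24 h (2 with library size alone), from 0 to 1 in MOLM-13 at 72 h and from 1 to 2 in MV-4-11 at 72 h. Members lower from 24 to 72 h in THP-1 ran from 15 to 26 and numbered 29 without the PMA and DB2313 libraries, and those lower after PMA ran from 15 to 32. Without the PMA and DB2313 libraries, 21.4% of all genes were lower from 24 to 72 h in THP-1, against 16.5% in the main fit. The cause of these shifts in counts was not tested. Scaling by library size alone moved the median of all genes at 72 h in MOLM-13 from 0 to 0.16 and that of the members from -2.07 to -1.88, and changed the split of all genes at 24 h in MOLM-13 from 23.5% lower and 22.7% higher to 19% and 27.7%. Correlations of same-numbered libraries within a line ran from -0.12 to 0.09, with 0 of 16 over 0.1, so the numbers were not taken as pairs. With the replicate block the count lower after PMA stayed at 24, and GNL3 alone changed its call (THP-1, 72 against 24 h, adjusted p = 0.0335, 0.0535 without the block). DESeq2 was not run for the F tests. With 2 libraries per group, small differences can go uncalled, and PPAN rests on as few as 22 counts.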
